A study of Mus musculus with 52 samples.

Results

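The comparison set the cerebral cortex of transgenic mice that had received a treatment vector against the cortex of wild-type mice. The treated mice carry human profilin-1 (PFN1) with the C71G mutation, a mutation found in familial amyotrophic lateral sclerosis (ALS), and received an artificial microRNA (amiR) against Atxn2, delivered by an adeno-associated virus (AAV). The wild-type mice are of the FVB strain and were given vehicle. A further arm of transgenic mice given vehicle is used beside both. Libraries were chosen by their titles, which gave 6 treated and 5 wild-type cortex libraries (11 of the 52 libraries in the series) and 6 of vehicle-treated transgenic cortex. Of 55401 mouse genes in the table, 20278 passed the filter on low counts and were tested. The treated arm held 3 females and 3 males, as did the vehicle-treated arm, and wild type held 2 females and 3 males. Wild-type mice were all 36 weeks old, while 1 treated mouse was 38 and 1 was 39 weeks old, and 2 vehicle-treated mice were 39 weeks old. For comparison between tissues, 6 treated and 6 wild-type spinal cord libraries were used, each arm with 3 females and 3 males. There too wild-type mice were all 36 weeks old, while 1 treated mouse was 38 and 1 was 39 weeks old. The fit of spinal cord alone also held 6 vehicle-treated transgenic libraries, from 3 females and 3 males, with 2 mice of 39 weeks. No arm received a control vector, so the amiR and the vector itself cannot be told apart. The promoter that drives the transgene, the number of founder lines, and the capsid, dose and route of the vector are not given in the labels used here.

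Profilin-1 binds actin monomers and promotes their addition to growing filaments. Ataxin-2, the product of Atxn2, is an RNA-binding protein of stress granules, and lowering it has been studied as a way to reduce aggregation of TDP-43, the protein that accumulates in most ALS. Artificial microRNAs are short hairpins built into a microRNA scaffold and cut by the cell's own microRNA machinery into a guide strand that silences a chosen transcript. In ALS the upper motor neurons of the cortex degenerate along with the lower motor neurons of the spinal cord.

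Libraries held 67.8 to 90.5 M counts in treated, 68 to 79.1 M in vehicle-treated and 67.5 to 79.4 M in wild-type cortex. The RNA integrity number (RIN), a score of RNA quality, was 7.7 to 8.3 in treated, 7.7 to 8.2 in vehicle-treated and 7.3 to 7.9 in wild-type libraries, so it moved with the genotype. On the first principal component (20.4% of the variance) the arms overlapped. Markers of cortical neurons were present in every arm: the summed level of 12 upper-layer genes lay between 717.7 and 1017 CPM (counts of a gene scaled to a common library total) in treated and between 745.2 and 959.8 CPM in wild-type libraries. Markers of neighbouring tissue varied more, with 14 striatal genes at 534.2 to 2329 CPM in treated and 647.9 to 1485 CPM in wild-type libraries.

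Atxn2, the target of the amiR, was lower in treated cortex than in either other arm. On CPM without further scaling it averaged 83.2 ± 7.25 in treated, 102.4 ± 7.78 in vehicle-treated and 102.7 ± 4.24 in wild-type cortex (SD, n = 6, 6 and 5). The treated libraries ran from 73.77 CPM (replicate 5) to 92.63 CPM (replicate 6), and the wild-type libraries held 96.48, 100.9, 103.5, 107.3 and 105.5 CPM. Thus the highest treated library lay below the lowest wild-type library, and the treated mean was 19.1% lower (exact permutation test, two-sided p = 0.00433, the smallest that 6 against 5 allows, adjusted p = 0.00974 over 9 such tests). Vehicle-treated transgenic cortex differed from wild type by a log2 difference of −0.0067 (exact permutation p = 0.944). In the fit across all genes, edgeR's estimate for treated against wild-type cortex was −0.31 on the log2 scale (SE 0.08). Its adjusted p was 0.0561, above the threshold of 0.05, whereas DESeq2 gave −0.32 and an adjusted p of 0.00791. For 4 transgenic spinal cord libraries the deposited library name and the title give different treatments, and titles were used here. The 2 libraries titled as treated and named as vehicle held 3189 and 3338 counts of WPRE, an element of the vector, and the 2 titled as vehicle and named as treated held 0. In spinal cord the same comparison gave −0.77 (SE 0.03), and the change differed between cortex and spinal cord by 0.47 (SE 0.08, adjusted p = 0.00208 for the difference between tissues; 0.49 and 0.00203 without those 4 libraries). Fewer cells that express a gene and less RNA per cell cannot be told apart in such bulk samples.

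The vector was read in every treated library. WPRE, which raises the level of the vector transcript, stood at 28.92, 27.55, 30.57, 64.76, 46.57 and 52.42 CPM in treated replicates 1 to 6, at 0 in wild-type libraries and at 0 in 5 of 6 vehicle-treated libraries (1 count in replicate 6). In treated cortex the miRE element, the scaffold that carries the amiR, ran from 5.07 to 13.9 CPM. For WPRE against Atxn2 across the 6 treated libraries Pearson's r was 0.45 (exact permutation p = 0.353) and Spearman's rho was 0.60 (exact permutation p = 0.242). Without the 2 libraries farthest from the median WPRE level r was −0.58, so its sign rests on those libraries.

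Human PFN1 averaged 1227 ± 235 CPM in treated and 1027 ± 182 CPM in vehicle-treated transgenic cortex (n = 6 each), and wild-type libraries held 2 counts in all. The 2 transgenic arms overlapped (exact permutation p = 0.13). Mouse Pfn1 was at 71.33 to 105.6 CPM in treated and 69.78 to 80.31 CPM in wild-type libraries, overlapping, and its difference of 0.16 on the log2 scale did not pass (exact permutation p = 0.195). Treated replicates 2 and 5, the highest for mouse Pfn1 at 97.6 and 105.6 CPM, were also the highest for human PFN1 at 1402 and 1616 CPM.

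**Figure D1:**
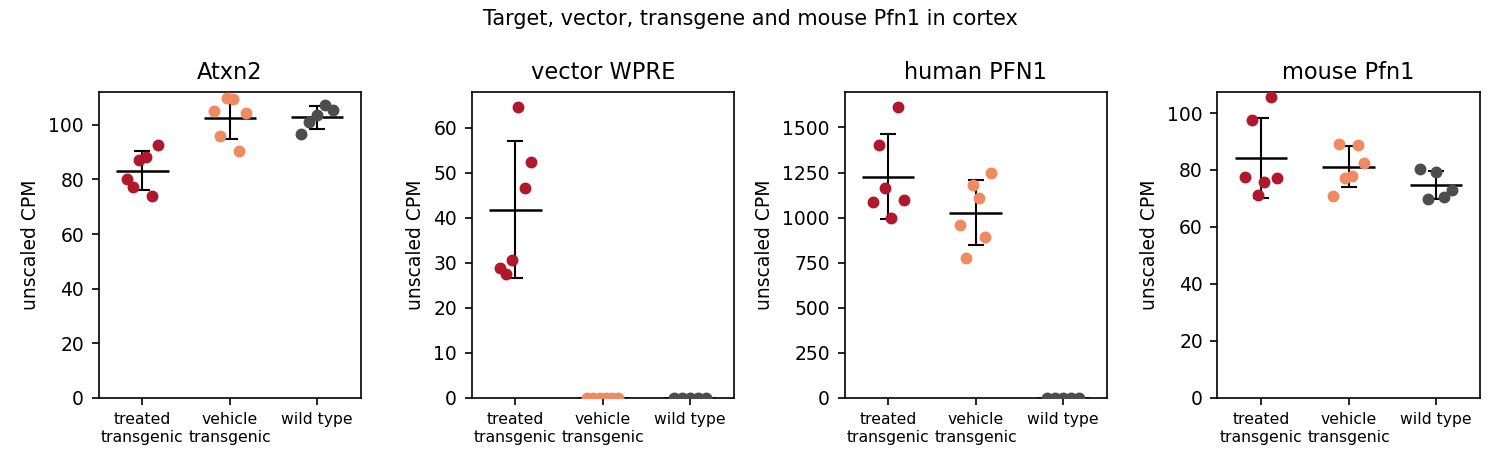
Unscaled CPM of Atxn2, the vector element WPRE, human PFN1 and mouse Pfn1 in each cortex library (dots) of treated transgenic, vehicle-treated transgenic and wild-type mice, with mean and SD (lines). Atxn2 lies between 73.77 and 92.63 CPM in treated libraries, below all 5 wild-type libraries, and WPRE and human PFN1 follow vector and genotype.

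Over all genes, edgeR's quasi-likelihood test called 228 of 20278 genes (1.12%) at an adjusted p under 0.05, of which 135 were higher (0.666% of all genes tested) and 93 lower (0.459%) in treated than in wild-type cortex. Most changes were small: 145 of the 228 lay under 0.5 on the log2 scale, the median size was 0.38, and 22 rises and 16 falls exceeded 2-fold. The median over all genes was 0.0025. At an unadjusted p under 0.05 there were 3710 genes. Treated and wild-type libraries did not overlap for 960 genes (4.73%), including 189 of the 228. Vehicle-treated transgenic cortex differed from wild type in 5 genes (0.0247%), and treated from vehicle-treated cortex in 4 (0.0197%). Of the 228 genes, 223 had the same sign in vehicle-treated against wild-type cortex, where their median size was 0.12; both comparisons share the wild-type libraries. Between the sexes, edgeR called 0 genes for a different change (483 at an unadjusted p under 0.05).

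This count depended strongly on single libraries and on the model. It was 356, 29, 25, 22, 16 and 57 without treated replicates 1 to 6, 79, 493, 343, 410, 103 and 92 without vehicle-treated replicates 1 to 6, and 70, 11, 33, 19 and 21 without wild-type replicates 1 to 5. With RIN as a covariate it was 11, without mice older than 36 weeks 9, without scaling beyond total counts 24 (11 higher and 13 lower), and with DESeq2 1381, of which 226 were among the 228. Over 27 alternatives 0 of the 228 genes changed sign. The alternatives refit largely the same libraries in which these genes were called, so kept signs are no independent support. The call held in all 27 for 6 genes: Prnp, Thy1, Lamr1-ps1, Nbdy, Atxn7l3b and Fabp5. Cxcl9 was called in all 20 in which it was tested. Outside treated cortex it held 0 to 3 counts per library, so it passed the filter only through treated libraries. Its 20 calls are therefore no independent support. For the other called genes below, the number of alternatives in which the call held is given.

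**Figure D2:**
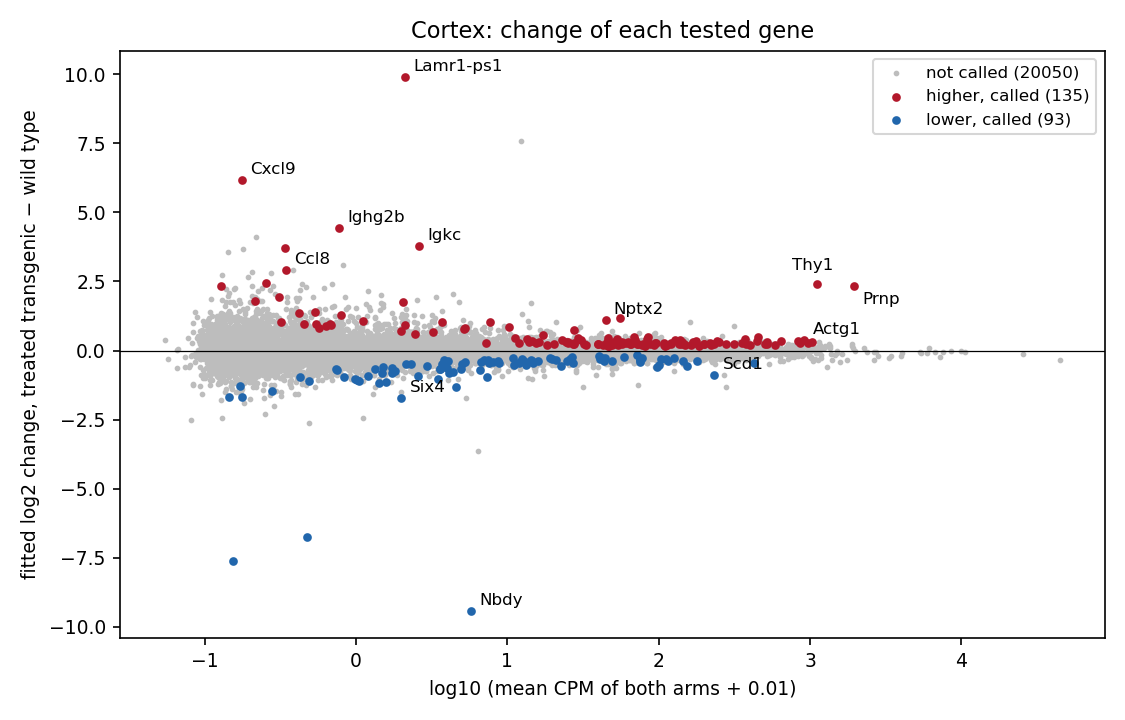
Fitted log2 change between treated transgenic and wild-type cortex (vertical axis) against mean level of both arms (horizontal axis, log10 of CPM) for 20278 genes, with 135 called higher (red), 93 called lower (blue) and the rest in grey. Most called genes lie close to 0, and Prnp and Thy1 stand apart among abundant transcripts.

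Prnp, Thy1, the pseudogene Lamr1-ps1, Nbdy and Mnat1 differed from wild type in both transgenic arms. Lamr1-ps1 is named here after its values were seen. Prnp, which encodes the prion protein and lies at chr2:131909928-131938429 (GRCm38), was the most abundant of them. It stood at a lowest, median and highest of 2901, 3354 and 3450 CPM in treated and at 2783, 2960 and 3151 CPM in vehicle-treated libraries, against 690, 638, 652, 635 and 612 CPM in wild type. No transgenic library came near a wild-type library, and the log2 change in treated cortex was 2.35 (SE 0.07, adjusted p = 1.55e-12). The transgenic arms differed from each other by 0.14 (adjusted p = 0.36). Thy1, a surface glycoprotein of neurons and T cells at chr9:44043384-44048579, reached 1309, 1716 and 2691 CPM (lowest, median and highest) in treated and 1108, 1639 and 1804 CPM in vehicle-treated libraries, against 332 to 369 CPM in the 5 wild-type libraries. Its change was 2.40 (SE 0.18, adjusted p = 2.33e-06) in treated cortex. Regulatory sequences of Prnp and of Thy1 are both widely used to drive transgenes in mouse neurons, and the counts cannot tell transcripts of the endogenous gene from transcripts of such a cassette.

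Lamr1-ps1, a processed pseudogene 4.97 kb from Prnp at chr2:131904086-131904959, had 272 to 360 counts in treated and 295 to 404 in vehicle-treated libraries. The 5 wild-type libraries together held 1 count, which puts treated over wild type at a ratio of 1520 (95% exact interval 273 to 60100, counting error only). Reads of a pseudogene may be shared with its parent gene, so its level is uncertain. Prnd, which lies 12.4 kb from Prnp on the other side, was at 0.18 ± 0.149 CPM in treated and 0.0982 ± 0.103 CPM in wild-type cortex (adjusted p = 0.637). Of 35 genes tested within 1 Mb of Prnp, 2 were called, Lamr1-ps1 and Chgb (11 of 27). Of 56 within 1 Mb of Thy1, 1 was called, Cd3g. Over all genes tested, 1.12% were called.

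Nbdy, which encodes a small protein of mRNA decapping complexes and P-bodies (known from human cells), was nearly lost in transgenic cortex. Treated libraries held 0 to 5 counts and vehicle-treated libraries 0 to 2, against 687 to 949 in wild-type libraries, where its level was 12.6, 10.3, 12.6, 10.4 and 11.8 CPM. Pooled over libraries, wild type exceeded treated cortex by a ratio of 763 (95% exact interval 370 to 1900, counting error only). Nbdy lies at chrX:153723590-153741920. Kctd12b, 27.2 kb away, was also lower in treated cortex, at 2.26 to 4.71 CPM against 5.25 to 6.11 CPM in wild type (log2 change −0.79, SE 0.18, adjusted p = 0.0482, call held in 10 of 27 alternatives). It was the 1 called gene of 10 neighbours tested within 1 Mb, against 1.12% called over all genes tested. Nbdy was the 1 called of 13 decapping and mRNA decay genes. For ataxin-2 together with its stress granule partners the count was 0 of 15, with a median of −0.01, and for the microRNA pathway 0 of 13, with a median of −0.07.

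Mnat1, a subunit of the CDK-activating kinase at chr12:73123717-73273988, was at 5.47, 6.42 and 7.26 CPM (lowest, median and highest) in treated cortex and at 6.06, 6.37 and 6.94 CPM in vehicle-treated cortex, against 8.8, 9.06, 8.94, 8.06 and 9.32 CPM in wild type. All transgenic libraries lay below all wild-type libraries, by −0.47 (SE 0.07) in both arms (adjusted p = 0.0107 for treated cortex, call held in 23 of 27 alternatives). The homeobox gene Six4 lies 10.3 kb from it and was lower by the fit (log2 change −1.72, SE 0.29, adjusted p = 0.0185, 20 of 27). It was at 0.494 to 1.45 CPM in treated and 0.995 to 2.12 CPM in vehicle-treated cortex, against 2.5 to 4.02 CPM in wild type. Of 16 neighbours of Mnat1 within 1 Mb, Six4 was the 1 called, against 1.12% called over all genes tested.

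**Figure D3:**
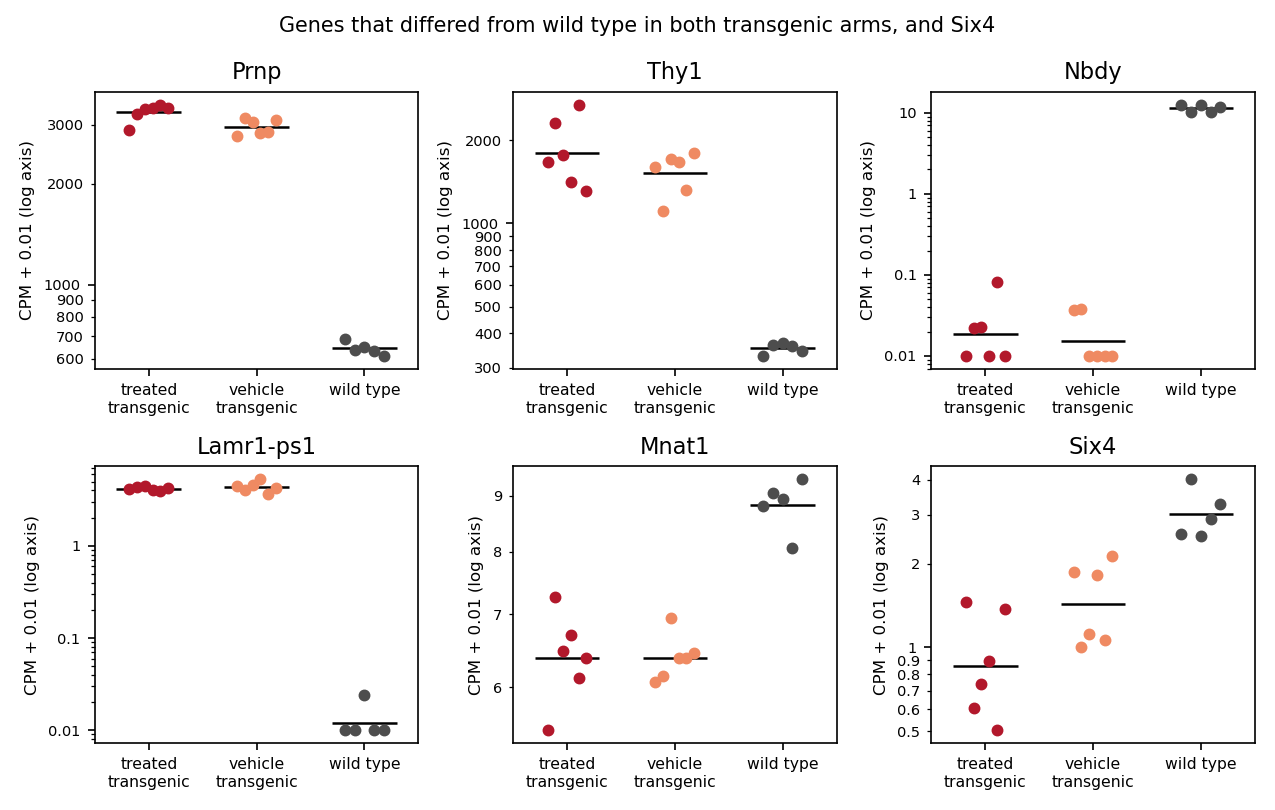
CPM plus 0.01 (log axes) of Prnp, Thy1, Nbdy, Lamr1-ps1, Mnat1 and Six4 in each cortex library (dots), with the geometric mean (lines), in treated transgenic, vehicle-treated transgenic and wild-type mice. For each gene both transgenic arms lie on the same side of all 5 wild-type libraries, with Nbdy at 0 to 5 counts in treated libraries.

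A small set of immune genes was higher in treated cortex, most of them at low levels. Cxcl9, Cxcl10 and Ccl8, chemokines that attract T cells and monocytes, were called, as were the immunoglobulin genes Ighg2b, Ighg2c and Igkc, the T cell receptor subunit Cd3g, the complement genes C4b and C3ar1, and the interferon-induced Ifi44 and Irgm1. Cxcl9 and Cxcl10 are neighbours (18.6 kb apart) on chromosome 5 and, as background, are induced by interferons through a GAAANNGAAA element, the interferon-stimulated response element, and related sites. The promoters of Cxcl10 and Irgm1 are shown because they hold this motif, and that of Cxcl9 because its gene had the largest change of the 3 and the window holds none. Sequences are RefSeq's on GRCm38.p6, from 250 bases before to 50 bases after the transcription start, 5′ to 3′ along the gene, and capitals mark the motif.
Cxcl10 (chr5:92348840-92349139, minus strand): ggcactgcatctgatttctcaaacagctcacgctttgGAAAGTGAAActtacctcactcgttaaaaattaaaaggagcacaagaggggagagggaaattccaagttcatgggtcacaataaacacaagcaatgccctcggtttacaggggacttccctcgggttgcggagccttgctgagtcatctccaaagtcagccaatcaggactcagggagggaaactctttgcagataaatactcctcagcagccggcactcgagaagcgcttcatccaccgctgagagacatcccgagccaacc
Irgm1 (chr11:48871371-48871670, minus strand): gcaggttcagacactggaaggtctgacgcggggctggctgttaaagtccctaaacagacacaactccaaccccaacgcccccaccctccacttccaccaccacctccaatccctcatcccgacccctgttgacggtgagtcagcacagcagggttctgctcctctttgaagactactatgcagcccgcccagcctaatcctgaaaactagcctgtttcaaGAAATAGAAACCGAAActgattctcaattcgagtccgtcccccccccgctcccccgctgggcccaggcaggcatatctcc
Cxcl9 (chr5:92328030-92328329, minus strand): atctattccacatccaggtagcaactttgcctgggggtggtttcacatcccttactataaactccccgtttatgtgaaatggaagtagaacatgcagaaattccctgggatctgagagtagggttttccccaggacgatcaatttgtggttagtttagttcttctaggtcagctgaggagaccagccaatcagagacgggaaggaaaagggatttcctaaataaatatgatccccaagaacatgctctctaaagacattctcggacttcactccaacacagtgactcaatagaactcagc
The motif was searched on both strands. In Cxcl10 it begins 213 bases before the start, and in Irgm1 there are 2 overlapping matches that span bases 30 to 15 before the start. Of the 11 called immune genes named above, 7 had a promoter in the table and 2 of these held the motif, against 3.44% of all 32851 promoters. Some of these genes were named from lists of interferon-induced genes, chosen with earlier results of these data known, so these shares are not a test. A match is only a match of letters.

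Cxcl9 was nearly absent outside treated cortex. The 6 treated libraries held 8 to 50 counts (0.116, 0.278 and 0.622 CPM at the lowest, median and highest), the 6 vehicle-treated libraries 0 to 3, and the 5 wild-type libraries 1 in all. Every treated library lay above every library of the other arms (log2 change against wild type 6.17, SE 0.76, adjusted p = 0.00167). Treated over wild type gave a pooled ratio of 123 (95% exact interval 21.7 to 4880, counting error only), and against vehicle-treated cortex Cxcl9 was also called (adjusted p = 0.00975). Ccl8 was at 0.324, 0.518 and 1.04 CPM in treated libraries, against 0.0666, 0.105, 0.0857, 0.0604 and 0.0687 CPM in wild type, without overlap (2.90, SE 0.47, adjusted p = 0.0155, held in 21 of 26). Cxcl10 reached 0.174, 0.36 and 0.747 CPM in treated cortex, against 0.0453 to 0.0857 CPM in wild type (2.45, SE 0.54, adjusted p = 0.0474, 9 of 26). Vehicle-treated libraries spanned both arms for Cxcl10, from 0.0288 to 0.304 CPM. In all, 3 of 15 tested chemokines were higher and 1 lower: Cxcl12, which is made by vascular and stromal cells, was at 64.9, 82.7 and 95.8 CPM in treated libraries and at 101, 122, 131, 122 and 120 CPM in wild type (−0.52, SE 0.10, adjusted p = 0.037, 15 of 27). Over all genes tested, 0.666% were called higher and 0.459% lower, and over the alternatives 0 to 5 chemokines were called higher. The chemokine list had a median of 1.21, and over the alternatives it ran from 0.032, at a mean of at least 1 CPM, where 4 members were tested, to 1.4.

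Immunoglobulin transcripts were led by 1 library. Igkc, the kappa light chain constant region, was at 1.63, 2.27 and 17.2 CPM (lowest, median and highest) in treated cortex, against 0.28, 0.184, 0.428, 0.257 and 0.371 CPM in wild type (3.77, SE 0.72, adjusted p = 0.0348, 15 of 27). Ighg2b, a heavy chain gene, was at 0.474, 0.63 and 5.05 CPM in treated cortex, against 0.0266, 0.0395, 0.0428, 0.106 and 0.0412 CPM (4.43, SE 0.69, adjusted p = 0.0111, 24 of 26), and it was also higher than in vehicle-treated cortex (adjusted p = 0.0208). Ighg2c was at 0.225, 0.312 and 2.24 CPM in treated cortex, against 0 to 0.0791 CPM (3.70, SE 0.79, adjusted p = 0.0451, 8 of 26). Treated replicate 2 was the highest for all 3 genes, and the other 5 treated libraries still lay above all wild-type libraries. Without that library Igkc (2.99) and Ighg2b (3.79) were still called and Ighg2c was not (2.88, adjusted p = 0.0738).

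Other B and plasma cell markers gave values below the threshold. Of 10 tested genes of that list these 3 were called, against 0.666% of all genes tested called higher. Over the alternatives 0 to 4 genes of the list were called higher. Jchain, which joins antibody multimers, was at 1.67 ± 0.834 CPM in treated and 0.695 ± 0.152 CPM in wild-type cortex (adjusted p = 0.0508), while Cd79a and Cd79b, subunits of the B cell receptor, averaged 0.366 and 0.174 CPM in treated and 0.334 and 0.175 CPM in wild-type cortex. The summed level of the list, mostly Xbp1 and Ighm, was 70.65 to 88 CPM in treated and 69.07 to 82.7 CPM in wild-type libraries. Cd3g was 1 of 12 tested T and NK cell genes called (2.34, SE 0.44, adjusted p = 0.0321, 12 of 20), with 4 to 24 counts in treated and 1 to 5 in wild-type libraries, overlapping. Cd3e, another subunit of the same complex, averaged 0.166 CPM in treated and 0.0777 CPM in wild-type cortex and was not called, and Cd3d, Cd8a, Cd8b1 and Gzmb did not pass the filter. The summed level of T and NK cell genes was 5.979 to 21.84 CPM in treated and 5.577 to 14.55 CPM in wild-type libraries. The part of infiltrating cells in these results was not tested further.

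Complement and interferon genes had positive medians and few calls. Of 15 complement genes, C4b and C3ar1 were called, against 0.666% of all genes tested called higher. Over the alternatives 0 to 3 complement genes were called higher. C4b, a central component made by astrocytes and other cells, was at 32.6, 67 and 131 CPM in treated libraries, against 40.2, 28.8, 35.9, 23.7 and 30.9 CPM in wild type (1.18, SE 0.26, adjusted p = 0.0478, 11 of 27). The C3a receptor C3ar1, a microglial gene, was at 1.65, 2.8 and 3.67 CPM, against 1.42, 1.38, 1.74, 1.09 and 1.36 CPM (0.93, SE 0.19, adjusted p = 0.0379, 14 of 27). For both genes the lowest treated library lay within the wild-type range. Among interferon-stimulated genes 1 of 30 was called (median 0.31), Ifi44, at 0.626 to 1.18 CPM in treated and 0.22 to 0.652 CPM in wild-type libraries (0.93, SE 0.20, adjusted p = 0.0464, 6 of 26). Of interferon-inducible GTPases, 1 of 16 was called (median 0.59), Irgm1, at 10, 12.1 and 19.2 CPM in treated libraries, against 10.1, 9.79, 9.35, 8.6 and 8.25 CPM (0.46, SE 0.10, adjusted p = 0.0449, 8 of 27).

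The lists of antigen presentation and of microglial states had no called member in the main fit, which did not hold in every alternative. All 10 MHC class II genes had positive log2 changes with a median of 1.13 and 0 called, and for 4 of them, H2-Aa, H2-Ab1, H2-Oa and Ciita, treated and wild-type libraries did not overlap, against 4.73% of all genes. H2-Ab1 averaged 5.37 CPM in treated, 2.22 CPM in vehicle-treated and 1.38 CPM in wild-type cortex (1.92, SE 0.45, adjusted p = 0.0508). The summed level of this list was 82.08 to 162.1 CPM in treated and 77.24 to 87.62 CPM in wild-type libraries. MHC class I gave 0 of 17 called, with a median of 0.44, and disease-associated microglia 0 of 24, with a median of 0.31. Over the alternatives the number called higher ran from 0 to 7 for MHC class II and from 0 to 4 for MHC class I. For disease-associated microglia it ran from 0 to 7. Homeostatic microglial genes gave 0 of 14 (median −0.05). Across the 124 tested genes of the chemokine, complement, interferon, MHC, T cell and B cell lists, the highest treated library was replicate 3 for 52 genes and replicate 2 for 42, against 5 to 11 for each of the other 4 libraries. These 2 replicates came from females of 36 and 38 weeks with RIN 7.7 and 8.3.

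**Figure D4:**
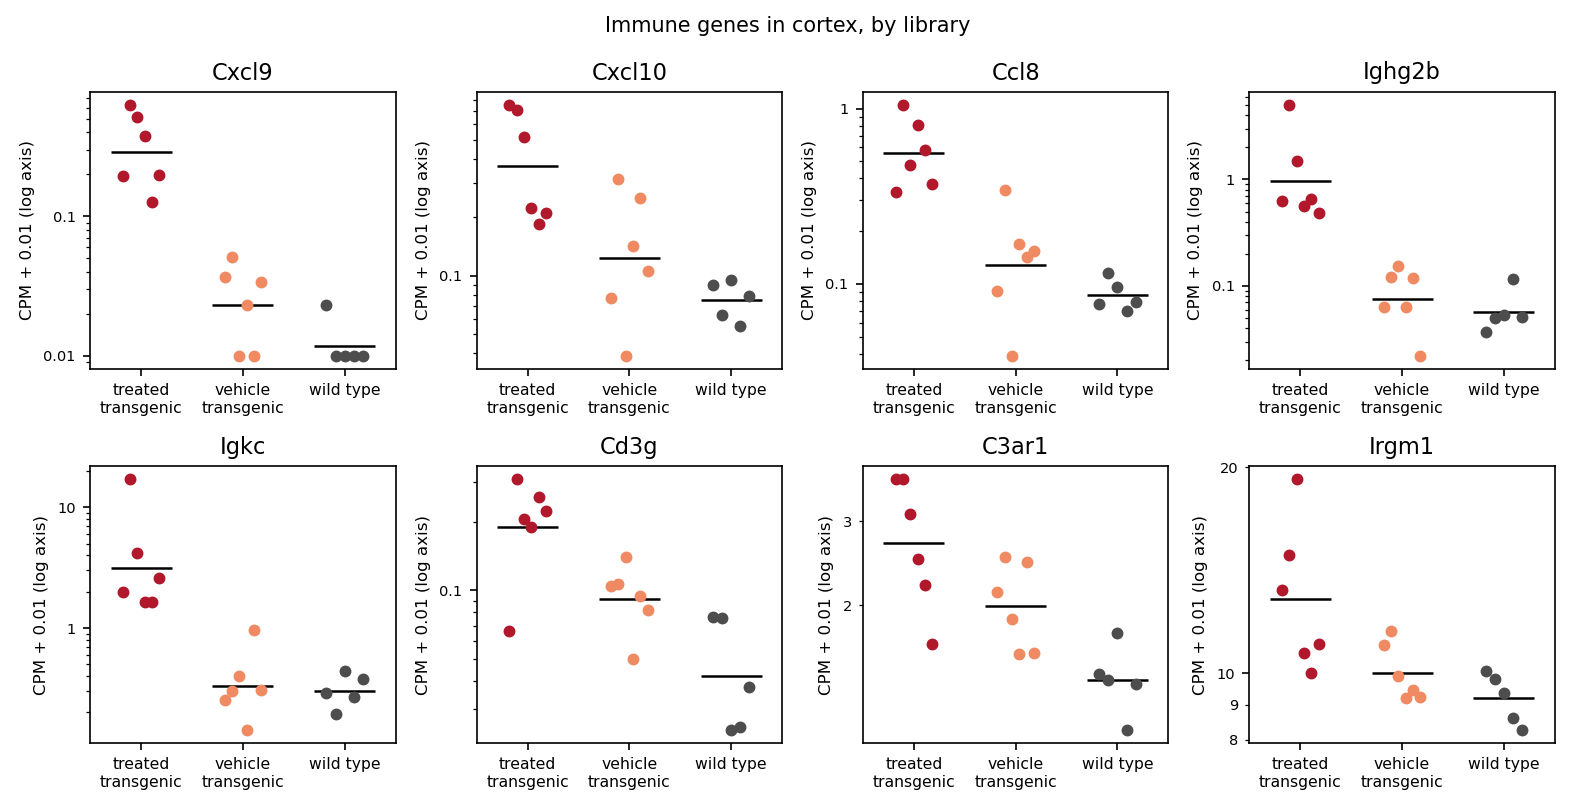
CPM plus 0.01 (log axes) of 8 immune genes in each cortex library (dots), with the geometric mean (lines), in treated transgenic, vehicle-treated transgenic and wild-type mice. Cxcl9, Ccl8, Cxcl10, Ighg2b and Igkc are higher in every treated library than in every wild-type library, and Cd3g, C3ar1 and Irgm1 overlap.

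Reactive astrocyte genes gave 3 calls of 20 (median 0.54): C4b, Cxcl10 and the calcium-binding protein S100a6, at 9.39, 14 and 18.5 CPM in treated and 8.12, 6.54, 8.38, 6.55 and 6.19 CPM in wild-type libraries (0.86, SE 0.17, adjusted p = 0.0376, 15 of 27). Its neighbour S100a4 was at 1.09 to 1.98 CPM in treated and 0.527 to 0.892 CPM in wild-type cortex (1.06, SE 0.21, adjusted p = 0.0376, 13 of 27). By comparison, 0.666% of all genes tested were called higher. Of the 20 reactive astrocyte genes, 0 to 7 were called higher over the alternatives. C4b and Cxcl10 are also counted in the complement and chemokine lists. Fabp5, a fatty acid carrier of neural and glial cells, was at 54.4, 60.5 and 63.7 CPM in treated libraries, against 48.3, 45, 46.6, 42.7 and 45 CPM in wild type. Its change of 0.41 (SE 0.06, adjusted p = 0.00701) was called in all 27 alternatives, and in vehicle-treated cortex it was 0.09. Among other rises were the calcium pump Atp2c2 (1.74, SE 0.41), Tgfb1i1, a focal adhesion protein (0.55, SE 0.12), the protease inhibitor Ctla2a (0.82, SE 0.19) and the transcription factor Myc (0.68, SE 0.15), whose calls held in 7, 9, 8 and 10 of 27 alternatives.

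Several genes of the actin cytoskeleton, in which profilin works, were slightly higher. Of 25 profilins and actin regulators, 5 were higher and 0 lower, 23 had a positive change and the median was 0.15. By comparison, 0.666% of all genes tested were called higher. The number of the 25 called higher ran from 0 to 9 over the alternatives. Actg1, gamma actin, was at 960, 1043 and 1124 CPM in treated and 859, 909 and 1006 CPM in vehicle-treated libraries, against 825, 769, 821, 758 and 801 CPM in wild type. Both transgenic arms lay above wild type, with a change of 0.38 (SE 0.06, adjusted p = 0.00701, 23 of 27) in treated and 0.21 in vehicle-treated cortex, the second not called. Beta actin, Actb, was at 820, 931 and 997 CPM in treated libraries, against 695, 712, 774, 730 and 786 CPM (0.33, SE 0.06, adjusted p = 0.0321, 13 of 27). The actin-severing proteins destrin (Dstn, 0.31, SE 0.06) and cofilin (Cfl1, 0.24, SE 0.05) and the Arp2/3 subunit Arpc2 (0.22, SE 0.04), which nucleates branched filaments, were the other 3, with adjusted p of 0.0296, 0.0464 and 0.0353. Their calls held in 15 (Dstn), 9 (Cfl1) and 12 (Arpc2) of 27 alternatives. For all 5 genes the treated and wild-type libraries did not overlap, which also held for 189 of the 228 called genes and 4.73% of all genes. Members of the actin families have near-identical coding sequences and pseudogenes, so reads may be split between them.

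Neuronal genes gave a small number of rises. Nptx2, a synaptic protein released with activity, was at 48.1, 53.2 and 97.5 CPM in treated and 22.4, 33 and 49.5 CPM in vehicle-treated libraries, against 19.2, 32.7, 25.5, 34.6 and 28.3 CPM in wild type (1.11, SE 0.23, adjusted p = 0.0408, 11 of 27). Bdnf, a neurotrophin induced by activity, was at 26.3, 32.2 and 51.5 CPM in treated libraries, against 20.9, 21.5, 21.2, 20.5 and 19.9 CPM (0.74, SE 0.16, adjusted p = 0.0451, 10 of 27). Treated replicate 4 was the highest for both. These were 2 of 22 neurotrophic factors and neuropeptides, while 0 of 16 immediate early genes were called, with a median of −0.53. Of 14 pan-neuronal genes 3 were higher (median 0.10), against 0.666% of all genes, and 1 to 4 were called higher over the alternatives. One of the 3 was Thy1, which was also called in vehicle-treated cortex. The others were Uchl1, a ubiquitin hydrolase (0.40, SE 0.08, adjusted p = 0.0353), and Stmn2 (0.30, SE 0.06, adjusted p = 0.0376). Stmn2 is a regulator of microtubules in axons whose splicing depends on TDP-43 in human neurons. Stmn2 was at 264, 277 and 294 CPM in treated libraries, against 238, 221, 233, 215 and 216 CPM in wild type, without overlap, and the calls held in 14 (Uchl1) and 12 (Stmn2) of 27 alternatives. Stmn2 was also the 1 gene called of 24 linked to ALS. Calb1, a calcium buffer and the 1 called of 12 upper-layer genes (5 of them positive, median −0.04), was at 131 to 161 CPM in treated and 80.4 to 127 CPM in wild-type libraries (0.39, SE 0.09, adjusted p = 0.0478, 9 of 27). Mybpc1 and Klhl40, named for their roles in muscle, were at 7.24 to 18.9 and 4.85 to 8.72 CPM in treated cortex, against 3.7 to 5.73 and 3.56 to 3.97 CPM in wild type (adjusted p = 0.0353 and 0.0263, held in 15 and 16 of 27).

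Energy and protein turnover genes gave few calls and small changes. Of 19 glycolytic genes, 4 were higher (median 0.19) and for 9 the treated libraries lay above all wild-type libraries. Over all genes, 0.666% were called higher and 4.73% did not overlap in either direction. The aldolase Aldoa was at 1102, 1110 and 1224 CPM in treated libraries, against 940, 899, 938, 945 and 906 CPM (0.30, SE 0.05, adjusted p = 0.0238, 15 of 27), with Tpi1 at 0.22, Hk1 at 0.23 and Pkm at 0.26, whose calls held in 9, 10 and 9 of 27. All 26 proteasome genes had positive changes, from 0.04 to 0.28 with a median of 0.13, and 3 were called: Psmb7 (0.23, SE 0.05), Psmb2 (0.28, SE 0.06) and Psma5 (0.19, SE 0.04). Psmb7 was at 74, 78 and 79.3 CPM in treated libraries, against 68.2, 67.2, 66, 62.9 and 65.3 CPM, and for 15 of the 26 the arms did not overlap, against 4.73% of all genes in either direction. Their calls held in 12, 11 and 8 of 27 alternatives. Oxidative phosphorylation gave 0 of 32 called (median 0.09, with 10 above all wild-type libraries), cytosolic ribosomal proteins 0 of 40 (median 0.03) and lysosome and autophagy 1 of 26, the proton pump subunit Atp6v0d1 (0.21, SE 0.05, held in 9 of 27). Cholesterol synthesis gave 0 of 23, with a median of 0.03.

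The lower genes included several enzymes. Scd1, which makes monounsaturated fatty acids, was at 129, 156 and 218 CPM in treated libraries, against 258, 288, 266, 374 and 330 CPM in wild type, without overlap (−0.89, SE 0.14, adjusted p = 0.0107, 23 of 27). Vehicle-treated cortex was at 240 to 358 CPM, overlapping wild type. Paqr8, a membrane progestin receptor, was at 65.8, 76.1 and 96.1 CPM in treated libraries, against 112, 125, 103, 129 and 117 CPM (−0.61, SE 0.09, adjusted p = 0.0107, 23 of 27). The mitochondrial enzymes Aldh6a1 and Dbt, of branched-chain amino acid breakdown, were lower: Aldh6a1 at 61.9, 67.3 and 72.8 CPM, against 84.7, 83.6, 79, 89.4 and 84.9 CPM (−0.33, SE 0.05, adjusted p = 0.00551, 24 of 27), and Dbt, at 16.8, 18 and 18.7 CPM, against 22.3, 21.9, 20.7, 22.3 and 21.9 CPM (−0.29, SE 0.04, adjusted p = 0.00701, 23 of 27). Aldh6a1 was also lower than in vehicle-treated cortex (adjusted p = 0.0188).

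Atxn7l3b, which encodes a small protein related to a subunit of a histone deubiquitinase, was lower in treated cortex in all 27 alternatives. It was at 143, 156 and 171 CPM in treated and 194, 204 and 209 CPM in vehicle-treated libraries, against 206, 200, 202, 196 and 201 CPM in wild type (−0.37, SE 0.05, adjusted p = 0.00172). Treated libraries lay below all others, and the change against vehicle-treated cortex was −0.39 (adjusted p = 0.00301). With Cxcl9, Aldh6a1 and Ighg2b it makes up the 4 genes called between the transgenic arms.

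Falls were also found among vascular and synaptic genes. Of 16 endothelial and pericyte genes 2 were lower: Flt1, a VEGF receptor, at 94.6, 99.6 and 108 CPM in treated libraries, against 114, 130, 140, 135 and 139 CPM (−0.38, SE 0.07, adjusted p = 0.0321, 15 of 27), and the efflux pump Abcb1a of the blood-brain barrier (−0.39, SE 0.08, adjusted p = 0.0464, 8 of 27), whose arms overlapped. By comparison, 0.459% of all genes tested were called lower. Over the alternatives, 0 to 2 of these 16 genes were called lower. The summed level of the list was 575.9 to 719.1 CPM in treated and 694.9 to 791.2 CPM in wild-type libraries. Cplx1, a complexin that clamps vesicle release, was the 1 called of 18 synaptic genes, at 298, 373 and 394 CPM in treated libraries, against 396, 515, 488, 563 and 511 CPM (−0.47, SE 0.11, adjusted p = 0.048, 10 of 27). Thin transcripts with larger changes were Tnfrsf25, a death-domain receptor (−1.31, SE 0.27), Tm6sf2, a lipid transport protein (−1.18, SE 0.26), Dnase1l2 (−1.03, SE 0.20), the adaptor Dok3 (−0.97, SE 0.20), Impg2 (−0.91, SE 0.18), Stac3 (−0.90, SE 0.20), the zinc transporter Slc39a2 (−0.82, SE 0.18), Sap25 (−0.74, SE 0.17), the Piwi family member Piwil2 (−0.59, SE 0.12) and the olfactory receptor Olfr287 (−0.58, SE 0.13). These 10 averaged under 10 CPM in wild type, and their calls held in 7 to 13 of 27 alternatives.

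Of 19 marker lists for cell types, 14 had no called member. All 16 oligodendrocyte and myelin genes had negative changes, with a median of −0.31 and 0 called. Their summed level was 2620 to 4577 CPM in treated, 2246 to 6300 CPM in vehicle-treated and 2422 to 6946 CPM in wild-type libraries, so the arms overlapped. Astrocyte identity genes gave 0 of 15 (median −0.19), deep-layer neurons 0 of 16 (0.02), interneurons 0 of 17 (0.12), and choroid plexus and ependyma 0 of 13 (−0.15). Markers of olfactory bulb neurons gave 0 of 12 with a median of 0.59 and 11 positive changes. Their summed level was 207.2 to 547.6 CPM in treated, 202.6 to 282.7 CPM in vehicle-treated and 158.7 to 240.5 CPM in wild-type libraries, and its part in the neuronal results was not tested. The median for choroid plexus and ependyma was −0.59 without treated replicate 5 and 0.95 without wild-type replicate 1. For olfactory bulb neurons it was −0.02 without treated replicate 2 and 0.93 with RIN as a covariate, and for oligodendrocytes it ran from −0.66 to −0.1 over the alternatives.

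Set beside spinal cord, where the same comparison called 5186 of 20307 genes (25.5%), cortex showed fewer calls. Without the 4 spinal cord libraries of conflicting names, spinal cord gave 4531 calls of 20506 genes and a joint model 2277 of 21190 genes for the difference between tissues, and 83 genes were called in both tissues with the same sign. Among 19269 genes tested in both tissues, 220 were called in cortex and 4984 in spinal cord, and 86 were called in both with the same sign (39.1% of the cortex genes, 1.73% of the spinal cord genes), 52 higher and 34 lower, with 5 of opposite sign. A joint model called a difference between tissues for 1949 of 21022 genes (9.27%), among them 78 of the 220. C3ar1 rose less in cortex (0.93) than in spinal cord (3.37), a difference of −2.43 (SE 0.43, adjusted p = 0.00213; −2.37 without the 4 libraries). Disease-associated microglia were called higher for 23 of 24 genes in spinal cord, with a median of 2.19, and MHC class I for 16 of 17, with a median of 1.29. Without the 4 libraries the counts were 24 of the 25 microglial genes tested in spinal cord and 15 of 17. For neuronal genes the difference had the other sign: 1.27 for Nptx2 (adjusted p = 0.00513), 0.96 for Bdnf (adjusted p = 0.00458), 0.45 for Stmn2 (adjusted p = 0.00162) and 0.47 for Uchl1 (adjusted p = 0.00869), all with changes between −0.21 and −0.06 in spinal cord. Ighg2b was at 4.43 in cortex and 0.58 in spinal cord, but that difference did not pass (adjusted p = 0.11). Without the 4 libraries its spinal cord value was −0.41 (adjusted p = 0.0827 for the difference). Scd1 was at −0.89 in cortex and 0.24 in spinal cord, and Aldh6a1 at −0.33 and −0.05, also without passing (adjusted p = 0.319 and 0.0776). For Scd1 the value in spinal cord rests on treated replicate 2, one of the 4 libraries, at 3429 unscaled CPM. The other 5 treated libraries lay between 327.9 and 569.8 CPM, below the wild-type range of 653.2 to 855.2 CPM. Without the 4 libraries both genes were called lower in spinal cord, Scd1 at −0.82 (adjusted p = 0.000393) and Aldh6a1 at −0.19 (adjusted p = 0.00623), and the differences between tissues were −0.05 and −0.12 (adjusted p = 0.921 and 0.232). Dbt differed between tissues by −0.37 (adjusted p = 0.0358), and by −0.22 without the 4 libraries (adjusted p = 0.0462). Prnp, Thy1, Nbdy, Mnat1, Six4, Atxn7l3b, Fabp5, Paqr8 and Cxcl9 were called in both tissues with the same sign.

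**Figure D5:**
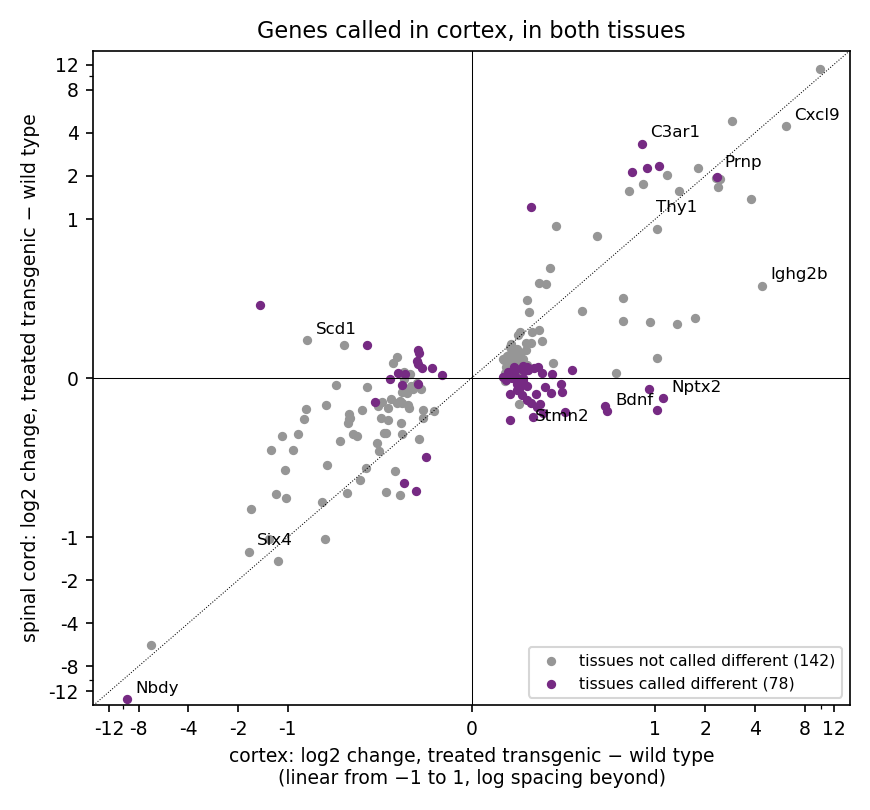
Log2 change between treated transgenic and wild-type mice in spinal cord (vertical axis) against cortex (horizontal axis) for the 220 genes called in cortex and tested in both tissues, with both axes linear from −1 to 1 and log-spaced beyond. Purple points mark the 78 genes whose change was called different between tissues, including C3ar1 above the diagonal and Nptx2, Bdnf and Stmn2 below it.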

How the data were processed

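Poly(A) RNA from 17 cortex libraries was sequenced on NovaSeq. The deposited values are RSEM expected counts per gene. The submitters' processing notes name bcl2fastq 2.20, STAR 2.7.2d, RSEM 1.3.2, DESeq2 1.34.0 and the builds GRCm38 and GRCh38, with no role or order. The annotation and strand setting are not given in the sources used here. Expected counts were rounded and mouse genes kept.

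Genes passing filterByExpr were fitted with edgeR 4.0.16 in R 4.3.3 (TMM scaling, quasi-likelihood test, arm and sex as terms, all 17 libraries). The Benjamini-Hochberg adjustment covered every tested gene, with a threshold of 0.05, and every adjusted p without another name comes from this fit. CPM are TMM-scaled unless called unscaled. DESeq2 1.42.0 was an alternative. Single values were tested by two-sided exact permutation on log2(unscaled CPM + 0.5) with scipy 1.17.1. Spinal cord alone was fitted in the same way, with its vehicle-treated arm included. The tissue difference is an interaction in a joint fit of treated and wild-type cortex and spinal cord, whose libraries the labels do not tie to animals. For 4 spinal cord libraries the library name gives another treatment than the title, and titles set the groups. Of these 4, the joint fit held the 2 titled as treated. On simulated counts, 89% of genes changed by 1 on the log2 scale and 51% of those changed by 0.5 were recovered (100 genes each, 9 false calls, 20021 genes). The changed genes averaged at least 1 CPM, and counts were drawn independently, without effects of RIN, age or single libraries. These rates do not cover thinner genes such as Cxcl9 and Cd3g.

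Named genes were the 15 largest rises and falls among called genes of at least 1 CPM, the 12 smallest adjusted p-values, and at most 4 called genes from any list. Predicted genes, clone names and pseudogenes were left out. Lists and members were chosen with earlier results of these data known. Chgb, Prnd, Lamr1-ps1 and the defining markers without a call were added after their values were seen. Intervals cover counting error only. Labelled sex matched in 17 of 17 libraries, and no 2 libraries of an arm agreed within sampling noise. P-values of the fits set a difference against the spread between libraries, and exact permutation p-values come from relabelled libraries.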

Additional observations from a re-analysis of the deposited data

Results flagged for a closer look

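In 131 groups of 5 or 6 libraries, 8 had a library far from the others, and chance gives about 1 in 20. The gap to the nearest library, as a share of the group's range on the log2 scale, was 0.629 for Igkc and 0.835 for Ighg2c in treated replicate 2 (17.2 and 2.24 CPM, both high), and 0.63 for Mybpc1 in the same library (18.9 CPM, high). It was 0.631 for Prnp in treated replicate 1, the low one, and 0.811 for Nbdy in treated replicate 5 (0.0727 CPM, high). In wild type it was 0.729 for Dbt in replicate 3 (20.7 CPM, low), 0.783 for Ighg2b in replicate 4 (0.106 CPM, high) and 1.0 for Cxcl9 in replicate 1 (0.0133 CPM, which is 1 count).

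For 20 of 64 named genes the change between treated and wild-type mice differed between cortex and spinal cord. Titles set the groups where 4 spinal cord libraries had a name that gives another treatment. Without those libraries, 19 of the 20 differences were still called, Nbdy (adjusted p = 0.0764) was not, and all 20 kept their sign. The difference, cortex minus spinal cord on the log2 scale, was positive for Atxn2 (0.47), Prnp (0.39), Nptx2 (1.27), Bdnf (0.96), Tgfb1i1 (0.52), Atxn7l3b (0.30), Dstn (0.27), Stmn2 (0.45), Uchl1 (0.47), Calb1 (0.63), Hk1 (0.23), Pkm (0.34), Psmb7 (0.18), Psmb2 (0.21) and Atp6v0d1 (0.22). It was 3.96 for Nbdy, whose counts in transgenic cortex were 0 to 5 per library. It was negative for S100a4 (−1.26), C3ar1 (−2.43), Dbt (−0.37) and Flt1 (−0.32). The sign of the change was opposite between tissues for Nptx2, Bdnf, Stmn2, Uchl1, Calb1, Pkm and Dbt, none of which was called in spinal cord. For the other genes listed it was the same in both tissues.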

How the results depend on the processing

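Of 228 genes called between treated and wild-type cortex, 182 were called in fewer than 14 of 27 alternatives. Of the 228, 0 changed sign, in alternatives that refit largely the same libraries. The count was 24 without scaling beyond totals, 1381 with DESeq2, 42 without a filter, 352 at a mean of at least 1 CPM, 11 with RIN as a covariate, 442 with only the 2 arms fitted and 9 without mice older than 36 weeks. It ranged from 11 to 493 when 1 library was left out. RLE scaling gave 243, of which 124 were higher and 119 lower. Between vehicle-treated and wild-type cortex the count was 9 with DESeq2 and 4 to 6 with 1 library left out. Between treated and vehicle-treated cortex it was 364 with DESeq2, 9 without a filter, 2 at a mean of at least 1 CPM, 10 without sex, 7 with RIN and 0 without older mice, where edgeR gave 1797 genes at an unadjusted p under 0.05. That count ranged from 1 to 80 when 1 library was left out (1 without treated replicate 3, 4 or 6, 2 without treated replicate 5 or vehicle-treated replicate 4 or 6, and 80 without vehicle-treated replicate 3). The causes were not tested. Chosen after seeing the data, leaving out the 4 spinal cord libraries with conflicting names gave 4531 calls in spinal cord and 2277 between tissues, against 5186 and 1949. Grouping spinal cord by library name, which puts libraries without WPRE into the treated group, gave 5012 and 2938, and the tissue differences of Atxn2 (adjusted p = 0.203), Atxn7l3b (0.523) and Calb1 (0.127) then missed the threshold. With the replicate block, counts were 12 for treated and 4 for vehicle-treated against wild-type cortex and 8 between the transgenic arms. Same-numbered libraries deviated together by correlations of −0.33 to 0.19 (treated and wild type) and −0.26 to 0.33 (transgenic arms). Such values cannot settle whether these libraries share more than a number. Depth limits statements on Cxcl9, Cxcl10, Ccl8, Cd3g and the immunoglobulin genes, some of which had fewer than 10 counts in wild-type libraries.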

Other observations

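Slc6a5, a glycine transporter of inhibitory neurons in hindbrain and spinal cord, varied widely between transgenic libraries, and the genes given here were chosen after their values were seen. Its counts were 858, 6306, 1160, 6, 2908 and 4 in treated replicates 1 to 6 and 7, 9, 1079, 8, 36 and 113 in vehicle-treated replicates, against 11, 9, 13, 3 and 7 in wild type. The summed counts of 39 Hox genes, which mark spinal cord, were 6 to 33 in treated and 8 to 24 in wild-type libraries. Wild-type spinal cord libraries held 41478 to 58838 counts of Slc6a5.

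Mid1-ps1, a pseudogene, had 0 counts in 5 treated libraries and 4 in replicate 3, 0 in 5 vehicle-treated libraries and 21 in replicate 1, and 47, 58, 69, 50 and 106 counts in wild type. Fam205a3 had 744, 688, 183, 77, 7 and 19 counts in treated and 741, 219, 886, 353 and 1060 in wild-type libraries.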
